A study of Mus musculus with 12 samples.

Results

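The sterol synthesis, sensing and uptake genes are 29 genes listed by name for their roles in the pathway, out of 24532 genes in a table of mouse liver RNA. They comprise 8 enzymes of the mevalonate and isoprenoid steps, 12 enzymes that take farnesyl diphosphate through squalene to cholesterol, 4 genes of sterol sensing and 5 genes of sterol transport and esterification. Whole livers of mice, all of strain C57BL/6x129S6/SvEv and aged 20 wk, gave 12 RNA libraries. There were 4 libraries in each of 3 groups: Atp7b-/- mice that received an LXR agonist in the feed (KO_drug 1 to 4), Atp7b-/- mice without it (KO 2, 4, 5 and 6) and controls labelled Het (Het 1 to 4). Atp7b encodes the copper-transporting ATPase that is lost in Wilson disease, and the series set agonist-fed knockouts beside untreated knockouts and controls. The labels give neither the sex, the litter, the deleted part of Atp7b nor the name, dose and duration of the agonist. The p-values measure the spread between these libraries, since no label ties their numbers to litters or days.

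Cholesterol is built from acetyl-CoA through mevalonate and squalene, and liver is a main site of that synthesis. The pathway is governed by the membrane-bound factor SREBP-2, encoded by Srebf2: when membrane sterol is low, Scap escorts SREBP-2 to the Golgi, where it is cut and released to the nucleus, and when sterol is high, the Insig proteins hold Scap and SREBP-2 in the endoplasmic reticulum. The liver X receptors, LXR, respond to oxysterols and switch on sterol efflux and fatty acid synthesis.

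Library totals were 18.8 to 20.2 in KO_drug, 16.5 to 28.3 in KO and 19.7 to 25.1 in Het, in units of 1e6 counts. Levels are given as CPM, counts per 1e6 counts on library sizes scaled by TMM. The targeted gene Atp7b was low in both knockout groups, with 1.31 to 3.49 CPM in the KO_drug libraries and 1.68 to 2.71 CPM in the KO libraries, below all Het libraries at 9.9 to 16.2 CPM. Xist, the RNA of the inactive X chromosome, reached 81.8 CPM in KO 5, and KO 6 had 17.8 CPM, against at most 0.425 CPM in the other 10 libraries. The Y-linked Ddx3y had 0.379 CPM in KO 5, while KO 6 had 64.4 CPM, against 79.5 to 111 CPM in all others, so KO 6 held both signals. Whether KO 6 holds RNA of more than 1 animal was not tested. Results are therefore also given without KO 5 and KO 6. The liver library that stood apart for the sterol genes themselves was KO_drug 2, and its values are named throughout. A whole-liver level cannot tell fewer cells of a type apart from less RNA per cell. Under total-count scaling the median log2 change of all genes was 0.54 in KO against Het, -0.36 in KO_drug against KO and 0.18 in KO_drug against Het, where TMM gave 0.02, -0.02 and -0.00. Changes of single genes under total-count scaling are read against these medians.

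Promoter sequences are shown for 4 members because SREBP-2 acts through short elements near the start of these genes, with the factors NF-Y (at CCAAT) and Sp1 (at GGGCGG) beside it. They come from RefSeq (GRCm38.p6) and run from 250 bases before to 50 bases after the start of transcription: Hmgcs1 at chr13:119690101-119690400 (+), Msmo1 at chr8:64733529-64733828 (-), Srebf2 at chr15:82147019-82147318 (+) and Idi1 at chr13:8885356-8885655 (+). Of the 23 members with a window, Hmgcs1 alone held the searched sterol element TCACNCCAC, while Msmo1, Srebf2 and Idi1 were chosen after their values were seen. Capitals mark TCACNCCA and CCAAT on either strand.
Hmgcs1: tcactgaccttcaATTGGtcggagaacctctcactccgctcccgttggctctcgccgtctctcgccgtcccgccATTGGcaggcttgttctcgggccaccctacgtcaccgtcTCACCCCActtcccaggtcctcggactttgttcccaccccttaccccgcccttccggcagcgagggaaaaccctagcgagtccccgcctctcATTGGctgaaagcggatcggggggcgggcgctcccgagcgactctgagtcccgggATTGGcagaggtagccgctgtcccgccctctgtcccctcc
Msmo1: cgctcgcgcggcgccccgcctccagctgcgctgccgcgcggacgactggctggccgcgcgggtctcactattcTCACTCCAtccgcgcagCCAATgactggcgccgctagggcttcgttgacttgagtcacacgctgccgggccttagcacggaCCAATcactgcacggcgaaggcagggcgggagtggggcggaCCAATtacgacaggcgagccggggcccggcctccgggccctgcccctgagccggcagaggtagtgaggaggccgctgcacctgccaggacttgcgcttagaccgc
Srebf2: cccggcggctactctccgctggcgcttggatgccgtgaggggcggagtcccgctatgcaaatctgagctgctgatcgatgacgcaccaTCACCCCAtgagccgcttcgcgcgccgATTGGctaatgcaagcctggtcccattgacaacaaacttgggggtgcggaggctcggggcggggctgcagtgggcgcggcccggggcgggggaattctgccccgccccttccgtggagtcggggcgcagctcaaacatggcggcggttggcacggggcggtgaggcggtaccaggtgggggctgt
Idi1: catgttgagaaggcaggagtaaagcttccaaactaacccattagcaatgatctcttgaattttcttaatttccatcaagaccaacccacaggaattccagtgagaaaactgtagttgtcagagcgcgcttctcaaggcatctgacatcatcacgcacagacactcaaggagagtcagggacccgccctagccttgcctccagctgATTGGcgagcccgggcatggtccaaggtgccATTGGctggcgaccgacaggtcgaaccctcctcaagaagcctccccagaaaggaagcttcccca

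The shorter element TCACNCCA, chosen after matches were seen, lay 137 bases before the start in Hmgcs1, 177 in Msmo1 and 162 in Srebf2. CCAAT was at 4 places in Hmgcs1, 3 in Msmo1, 2 in Idi1 and 1 in Srebf2. Windows were found for 23 of the 29 members, 29 windows in all, and both strands were searched. CCAAT was in 21 of the 29 windows (72.4%), against 37.4% of all 32851 RefSeq windows of this length. GGGCGG was in 24 of 29 (82.8%), against 35.7% of all windows. TCACNCCAC was in 1 of 29 (3.45%), against 1.24%, and TCACNCCA, which includes it, in 3 of 29 (10.3%), against 4.36%. In the 100 bases nearest the start, CCAAT was in 14 of 29 windows (48.3%), against 13.6% of all windows. GGGCGG was there in 11 of 29 (37.9%), against 21.7%, and TCACNCCAC in 0 of 29, against 0.399%. The windows compared with were not limited to genes expressed in liver, while all members passed the filter on low counts. These are matches of letters, not measured binding.

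Levels of different genes were compared per length, with the deposited FPKM (fragments per kilobase and 1e6 fragments), as mean ± SD of 4 libraries. In KO_drug, Insig2 led at 192 ± 60.5 FPKM, followed by Fdps (farnesyl diphosphate synthase) at 144 ± 90, Insig1 at 101 ± 21.3 and Ebp (a sterol isomerase) at 90.9 ± 15.1. In KO the order was Insig2 at 116 ± 42.4 FPKM, Fdps at 102 ± 22.5, Ebp at 84 ± 15.9 and Msmo1 at 68.6 ± 17.8. In Het it was Fdps at 227 ± 82.2 FPKM, Sc5d at 161 ± 13.8, Insig2 at 125 ± 7.77 and Msmo1 at 118 ± 31.8. Neighbours in these orders overlapped in their libraries, except Sc5d and Insig2 in Het. The lowest members were Ggps1 and Soat1 in KO_drug and Het, and Ggps1 and Stard4 in KO, with Soat1 at 1.76 ± 0.402 FPKM in KO_drug, 4.39 ± 1.45 in KO and 1.23 ± 0.193 in Het.

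In KO against Het, 12 of the 29 members fell, 2 rose and 15 were not called, in an edgeR quasi-likelihood fit with p-values adjusted by Benjamini-Hochberg over 13379 genes and called under 0.05. All 29 members passed the filter on low counts. Of all genes tested, 17.7% were called lower and 23.0% higher. The groups did not overlap, with all KO libraries lower, for 15 members, and with all KO libraries higher for 2, where 17.1% and 22.2% of all genes did so. The median log2 change was -0.72 over the members and 0.02 over all genes tested. The 20 synthesis enzymes held 9 of the falls and no rise, with a median log2 change of -0.98 and a negative value for each of the 20. For rises among the enzymes, the count at an unadjusted p under 0.05 was also 0, as was that of DESeq2 and limma voom. Under total-count scaling 17 of the 20 values stayed negative, and Lbr turned to a called rise of 0.47 on the log2 scale. The falls called under that scaling were 6, of Idi1, Fdps, Tm7sf2, Sc5d, Insig1 and Stard4. Among all 13379 genes it called 6909 higher and 460 lower.

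**Figure D1:**
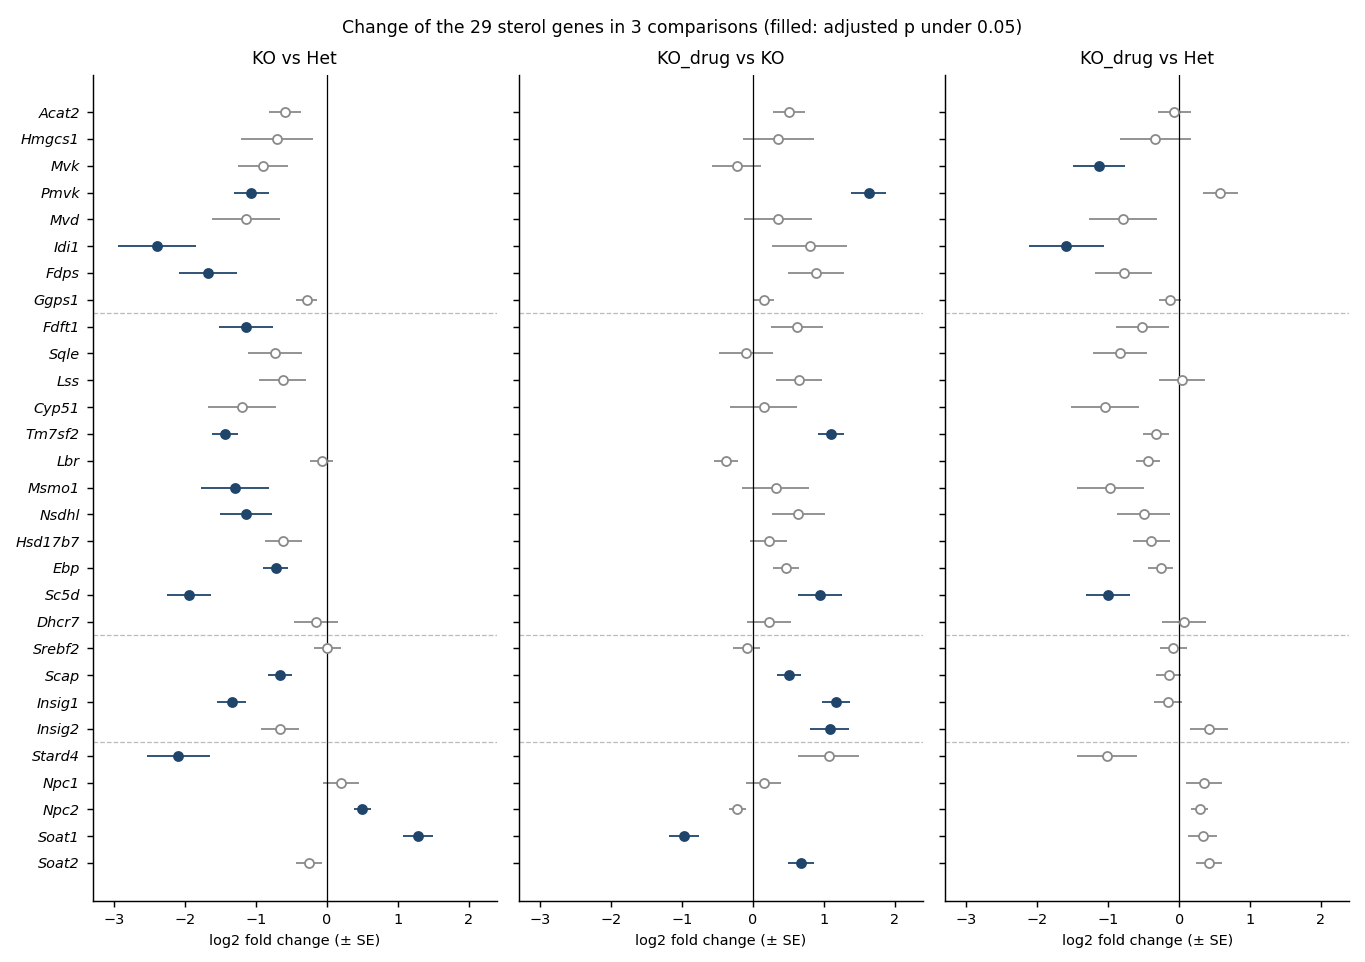
Log2 fold change (x axis, ± SE) of the 29 sterol genes (rows, by step of the pathway, broken lines between steps) in 3 comparisons of 4 with 4 libraries; filled points had an edgeR adjusted p under 0.05. In KO against Het 25 of the 29 values are negative (21 under total-count scaling), and in KO_drug against KO 23 are positive (17 under total-count scaling).

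Idi1 (GRCm38.p6, chr13:8885606-8892396), the isomerase that readies isoprenoid units for joining, had the largest fall of the 29, and its promoter window held CCAAT but not TCACNCCA. It stood at 73.8, 202, 73.8 and 16.6 CPM in KO_drug 1 to 4, at 72.2, 46.1, 36.9 and 55.2 CPM in KO 2, 4, 5 and 6, and at 395, 331, 181 and 196 CPM in Het 1 to 4. In KO against Het this was 5.24-fold lower (log2 -2.39 ± 0.55 SE, edgeR adjusted p = 0.0039), with no overlap. Fdps (chr3:89093588-89101967), which joins isoprenoid units into farnesyl diphosphate, stood at 213, 461, 242 and 81.3 CPM in KO_drug 1 to 4, at 165, 115, 94.8 and 164 CPM in KO 2, 4, 5 and 6, and at 550.2, 511, 287 and 364 CPM in Het 1 to 4. It was 3.18-fold lower in KO (log2 -1.67 ± 0.41 SE, edgeR adjusted p = 0.00557), again with no overlap, and the snRNA gene Gm22935 lies within the span of Fdps. Pmvk (chr3:89454541-89469014), the second kinase of mevalonate, stood at 117, 124, 164 and 66.4 CPM in KO_drug 1 to 4, at 46.3, 34.8, 28 and 42.6 CPM in KO 2, 4, 5 and 6, and at 102, 77.3, 60.2 and 76.1 CPM in Het 1 to 4. It fell 2.08-fold in KO (log2 -1.06 ± 0.25 SE, edgeR adjusted p = 0.0048). Every KO library of Pmvk lay below every library of both other groups, and KO_drug 1, 2 and 3 lay above every Het library.

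The other mevalonate and isoprenoid enzymes were lower in KO without being called. Hmgcs1, which makes HMG-CoA and whose promoter window held the sterol element, stood at 171, 776, 219 and 91.5 CPM in KO_drug 1 to 4, at 313, 201, 230.1 and 232 CPM in KO 2, 4, 5 and 6, and at 486, 544, 277 and 282 CPM in Het 1 to 4. Its log2 change in KO against Het was -0.70 ± 0.51 SE (edgeR adjusted p = 0.289), and the groups overlapped. Mvk, the first kinase, stood at 14.5, 31.3, 14.2 and 6.85 CPM in KO_drug 1 to 4, at 24.4, 14.1, 16.1 and 23.5 CPM in KO 2, 4, 5 and 6, and at 42.5, 45.2, 28.9 and 29.4 CPM in Het 1 to 4. The KO and Het libraries of Mvk did not overlap, yet the edgeR adjusted p was 0.0562 at a log2 change of -0.90 ± 0.35 SE. Acat2, the cytosolic thiolase of the opening step, spanned 85.7 to 225 CPM in KO_drug, 91.1 to 126 in KO and 149 to 183 in Het, with a log2 change of -0.59 ± 0.23 SE in KO against Het. Mvd, the decarboxylase, spanned 4.83 to 29.8 CPM in KO_drug, 6.58 to 13.3 in KO and 11.3 to 33.5 in Het, with a log2 change of -1.14 ± 0.48 SE. Acat2 did not overlap between KO and Het, and Mvd did. Acat2 has a close paralog, Acat3, with a log2 change of -0.33 ± 0.17 SE in KO against Het, and reads could be split between them. Ggps1, which leads to geranylgeranyl diphosphate and away from sterols, stayed between 10 and 16.7 CPM in all 12 libraries, with a log2 change of -0.28 ± 0.15 SE.

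Among the 12 enzymes after farnesyl diphosphate, 6 fell in KO against Het and 6 were not called. Sc5d (chr9:42251592-42264300), the desaturase of the lathosterol step, stood at 179, 459.9, 281 and 145 CPM in KO_drug 1 to 4, at 179.7, 110.2, 109 and 156 CPM in KO 2, 4, 5 and 6, and at 469, 636, 509 and 515 CPM in Het 1 to 4. It was 3.84-fold lower in KO (log2 -1.94 ± 0.31 SE, edgeR adjusted p = 0.000432), with a wide gap between the groups. Tm7sf2 (chr19:6062821-6067850), a sterol reductase, stood at 140.2, 175, 184 and 132 CPM in KO_drug 1 to 4, at 102, 61.4, 56.8 and 74.4 CPM in KO 2, 4, 5 and 6, and at 208, 199, 185 and 200.5 CPM in Het 1 to 4. It was 2.69-fold lower in KO (log2 -1.43 ± 0.18 SE, edgeR adjusted p = 7.0e-05), and the 3 groups did not overlap at all. Its span overlaps that of Vps51, whose log2 change was 0.18 ± 0.18 SE. Lbr, which carries the same reductase activity besides its role in the nuclear envelope, stood between 12.5 and 22.4 CPM in all 12 libraries and had a log2 change of -0.07 ± 0.16 SE.

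Msmo1, whose window held TCACNCCA, is the oxidase that starts the removal of the methyl groups of lanosterol products. It stood at 99, 388, 92.9 and 59.3 CPM in KO_drug 1 to 4, at 166, 89.3, 102 and 155 CPM in KO 2, 4, 5 and 6, and at 349, 399, 237 and 266 CPM in Het 1 to 4. The log2 change in KO against Het was -1.29 ± 0.48 SE (edgeR adjusted p = 0.045). KO and Het did not overlap, and KO_drug 2 lay at the Het level while the other 3 agonist-fed libraries lay among or below KO. Nsdhl, which acts in the same removal, stood at 69.7, 129.7, 66.4 and 25.9 CPM in KO_drug 1 to 4, at 67.4, 40.8, 29.6 and 49.6 CPM in KO 2, 4, 5 and 6, and at 112, 124, 82.5 and 93.8 CPM in Het 1 to 4. It fell in KO (log2 -1.14 ± 0.37 SE, edgeR adjusted p = 0.0268), with all KO libraries below all Het libraries.

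Fdft1, squalene synthase, stood at 79.8, 229, 102 and 51.7 CPM in KO_drug 1 to 4, at 96.7, 62, 58.2 and 84 CPM in KO 2, 4, 5 and 6, and at 201, 213, 121 and 128 CPM in Het 1 to 4. It fell in KO against Het (log2 -1.14 ± 0.38 SE, edgeR adjusted p = 0.0278), without overlap. Its span overlaps Ctsb, a lysosomal protease gene that rose by 0.52 ± 0.17 SE on the log2 scale, and how the counting used strand is not stated. Ebp, the isomerase near the end of the pathway, stood at 215, 235, 222 and 152 CPM in KO_drug 1 to 4, at 130.4, 122, 145 and 200 CPM in KO 2, 4, 5 and 6, and at 202, 267, 278 and 238 CPM in Het 1 to 4. It fell in KO (log2 -0.72 ± 0.18 SE, edgeR adjusted p = 0.00736), although KO 6 came within a few CPM of the lowest Het library. Ebp and Nsdhl lie on the X chromosome, and KO 5 and KO 6 held Xist RNA. Without KO 5 and KO 6 the log2 change was -1.03 ± 0.22 SE for Ebp, still called, and -0.99 ± 0.47 SE for Nsdhl, not called. The part of sex in these changes was not tested.

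The calls of Msmo1, Nsdhl and Fdft1 lay near the threshold, while their log2 changes held when any 1 library was left out, at -1.44 to -1.15 for Msmo1, -1.36 to -0.96 for Nsdhl and -1.28 to -1.01 for Fdft1. Msmo1 lost its call when any Het or any KO library was left out (highest edgeR adjusted p 0.113). Nsdhl lost it without Het 1, Het 2, KO 4, KO 5 or KO 6 (highest 0.0728), and Fdft1 without Het 1, Het 2, KO 4 or KO 5 (highest 0.0739). Without KO 5 and KO 6 together these 3 were the calls lost, which left 9 falls and both rises. Without KO_drug 2, which enters only through the shared spread, 18 members were called lower, and in a fit of KO and Het alone 21 were. Among all genes, these 2 fits called 2394 of 13697 and 2542 of 13343 lower. The 6 enzymes not called, Sqle, Lss, Cyp51, Lbr, Hsd17b7 and Dhcr7, had log2 changes between -1.20 and -0.07.

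Of these 6, Cyp51, the lanosterol demethylase, did not overlap between KO and Het, with 26 to 237 CPM in KO_drug, 71.3 to 126 CPM in KO and 177 to 308 CPM in Het (edgeR adjusted p = 0.06). Sqle, squalene epoxidase, spanned 25 to 130.5 CPM in KO_drug, 53.3 to 94.8 in KO and 87.1 to 164 in Het. Lss, which closes the sterol rings, spanned 44.1 to 162 CPM in KO_drug, 41 to 71.3 in KO and 64.9 to 108 in Het. Both overlapped between KO and Het, as did the next pair. Hsd17b7, a ketosteroid reductase, spanned 61.9 to 137 CPM in KO_drug, 59.6 to 93.6 in KO and 83 to 147 in Het. Dhcr7, the last reductase, spanned 44.5 to 124 CPM in KO_drug, 35 to 76.9 in KO and 54.5 to 81.1 in Het.

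Of the sterol sensors, Insig1 and Scap fell in KO against Het, and Insig2 and Srebf2 were not called. Insig1 (chr5:28071412-28078662) stood at 297, 458, 351 and 287 CPM in KO_drug 1 to 4, at 175, 120.1, 141 and 182 CPM in KO 2, 4, 5 and 6, and at 504, 391, 321 and 345 CPM in Het 1 to 4. It was 2.53-fold lower in KO (log2 -1.34 ± 0.20 SE, edgeR adjusted p = 0.000247), and every KO library lay below every library of the other 2 groups. Gm35223, an lncRNA gene, overlaps its span. Insig2 (chr1:121304353-121332662) stood at 610.4, 335, 802 and 713 CPM in KO_drug 1 to 4, at 242, 416, 203 and 301 CPM in KO 2, 4, 5 and 6, and at 396, 531, 502 and 405 CPM in Het 1 to 4. Its log2 change in KO against Het was -0.66 ± 0.27 SE (edgeR adjusted p = 0.0642), and KO 4 lay within the Het range.

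Scap stood at 103, 168, 139 and 113 CPM in KO_drug 1 to 4, at 84.5, 71.7, 103 and 108 CPM in KO 2, 4, 5 and 6, and at 137, 140.2, 153 and 149.7 CPM in Het 1 to 4. It fell in KO against Het (log2 -0.66 ± 0.17 SE, edgeR adjusted p = 0.00689), with a gap between the groups. Srebf2, the gene of the transcription factor itself, stood at 20.2, 33.7, 21.2 and 20.1 CPM in KO_drug 1 to 4, at 28.4, 20.9, 25.4 and 26.6 CPM in KO 2, 4, 5 and 6, and at 26.5, 20.0, 21.4 and 32.5 CPM in Het 1 to 4. The groups overlapped throughout, with a log2 change of 0.01 ± 0.19 SE in KO against Het (edgeR adjusted p = 0.965).

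The transport and esterification genes moved in both directions. Stard4, a cytosolic sterol carrier, stood at 22.4, 102, 26.3 and 27.8 CPM in KO_drug 1 to 4, at 28.2, 16.6, 19.7 and 20.5 CPM in KO 2, 4, 5 and 6, and at 133, 73.2, 70.2 and 84.8 CPM in Het 1 to 4. It was 4.25-fold lower in KO (log2 -2.09 ± 0.44 SE, edgeR adjusted p = 0.00223), and of the agonist-fed libraries KO_drug 2 alone lay among Het. Npc2, which binds sterol in the lysosome and hands it to Npc1, stood at 102, 78.5, 94.5 and 81.4 CPM in KO_drug 1 to 4, at 108, 119, 86.8 and 101 CPM in KO 2, 4, 5 and 6, and at 75.6, 70.2, 70.4 and 76.1 CPM in Het 1 to 4. It rose in KO against Het (log2 0.5 ± 0.12 SE, edgeR adjusted p = 0.00583), and the Het libraries were the lowest of all 12. Npc1, the lysosomal membrane partner, stood at 136 to 177 CPM in KO and 76.6 to 197 CPM in Het, and was not called (log2 0.20 ± 0.25 SE, edgeR adjusted p = 0.551). Under total-count scaling Npc1 was called higher, at 0.75 on the log2 scale. The median of all genes was 0.54 under that scaling, and the span of Npc1 overlaps that of Rmc1. Short or non-coding neighbours overlap Acat2 (Gm20591), Mvd (Gm51557), Lss (4930483K19Rik) and Srebf2 (Mir33), and their part in the counts was not tested.

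Soat1 and Soat2 both esterify cholesterol for storage, Soat1 in macrophages and many other cells and Soat2 in hepatocytes and gut. Soat1 (chr1:156428108-156474328) stood at 13.5, 9.95, 9.05 and 10.9 CPM in KO_drug 1 to 4, at 30.8, 21.8, 16.1 and 16.2 CPM in KO 2, 4, 5 and 6, and at 8.2, 9.15, 7.57 and 9.69 CPM in Het 1 to 4. It rose 2.45-fold in KO against Het (log2 1.29 ± 0.21 SE, edgeR adjusted p = 0.00044) and was 1.95-fold lower in KO_drug against KO (log2 -0.97 ± 0.21 SE, edgeR adjusted p = 0.00711). All KO libraries lay above all others, KO 5 and KO 6 the least so. Soat2 (chr15:102150415-102163469) stood at 25.2, 29.5, 36.5 and 30 CPM in KO_drug 1 to 4, at 18.7, 15.3, 22.2 and 19.5 CPM in KO 2, 4, 5 and 6, and at 15, 23.3, 27.4 and 24.6 CPM in Het 1 to 4. It rose in KO_drug against KO (log2 0.68 ± 0.18 SE, edgeR adjusted p = 0.0205) with no overlap, and in KO against Het the log2 change was -0.25 ± 0.18 SE, not called. The Soat2 rise lost its call without KO 2, KO 4 or KO_drug 3 (highest edgeR adjusted p 0.0681).

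**Figure D2:**
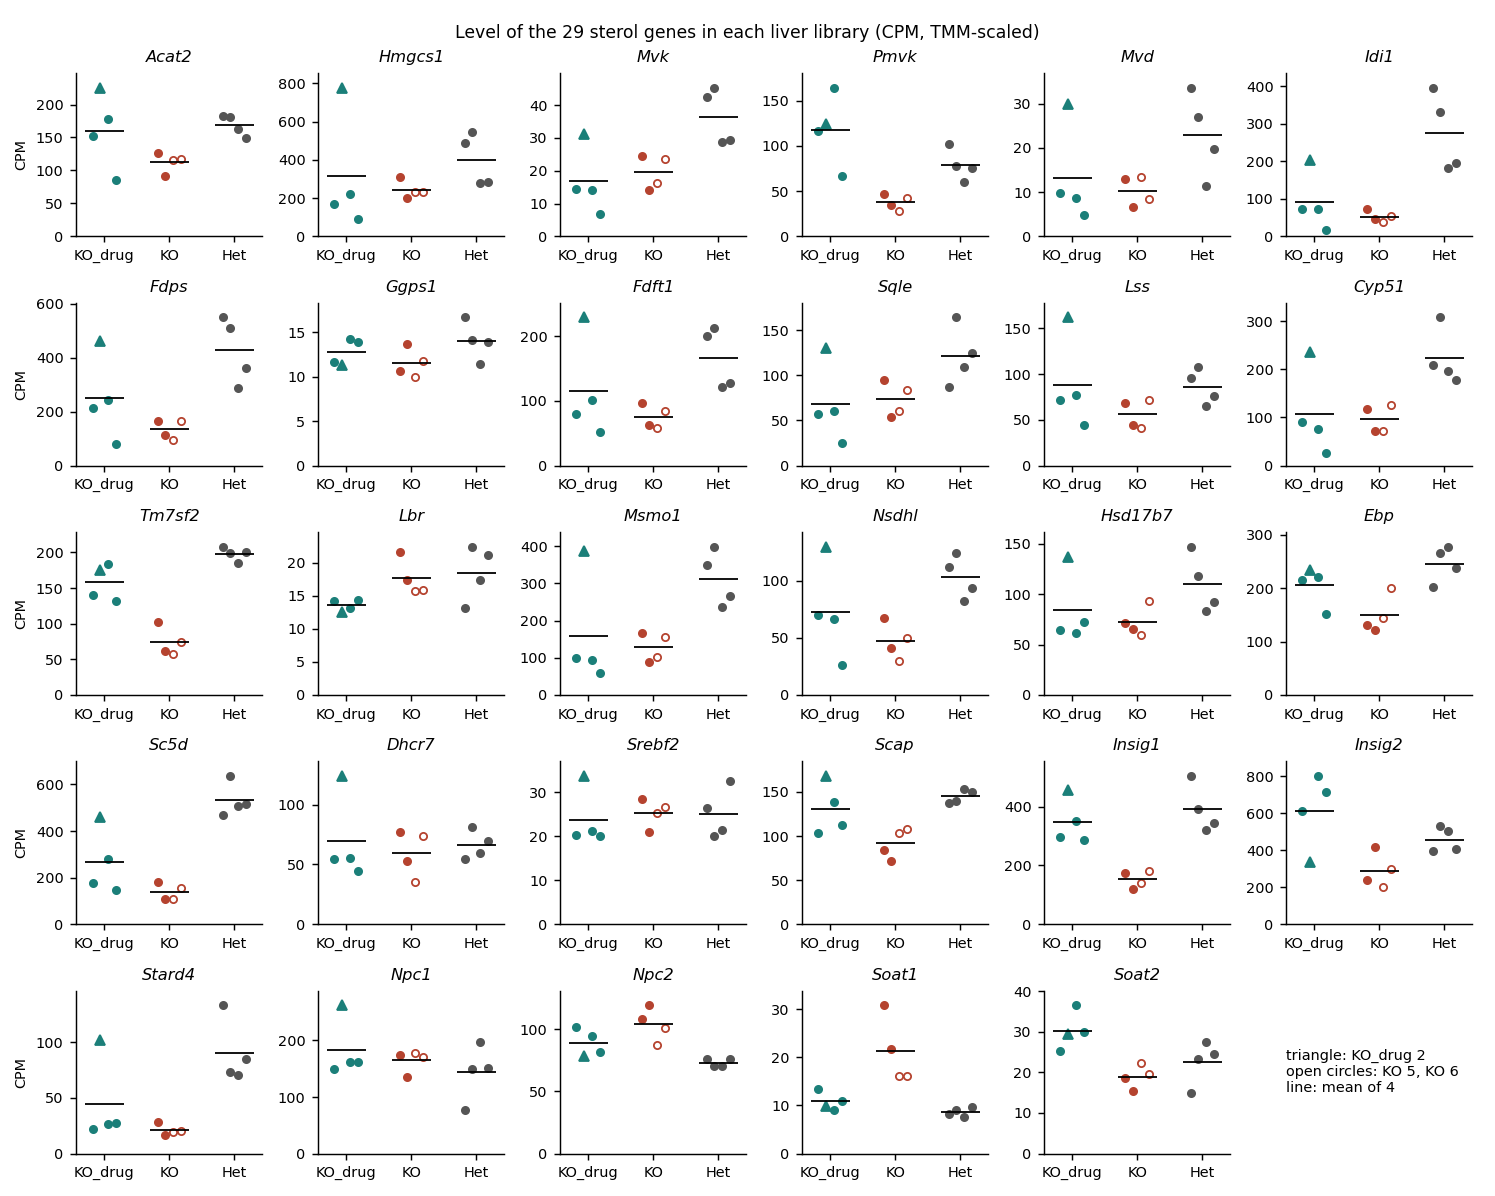
Level of each of the 29 sterol genes (CPM on TMM-scaled library sizes, linear axes starting at 0) in the 4 libraries of KO_drug, KO and Het, from left to right; lines are group means. Insig1 and Soat1 separate KO from both other groups, while for Hmgcs1, Msmo1 and Stard4 the triangle of KO_drug 2 (776, 388 and 102 CPM) lies far above the other 3 agonist-fed libraries.

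Macrophage and hepatocyte markers moved over the same comparison. Among all genes tested, 23.0% were called higher and 17.7% lower in KO against Het, and 8.80% and 11.0% in KO_drug against KO. In KO_drug against Het these shares were 13.0% and 8.45%. Of 16 macrophage and Kupffer cell markers, 14 were called higher in KO against Het, Cd68 by 1.5 ± 0.22 and C1qc by 1.67 ± 0.25 SE on the log2 scale, and their summed level was 569.6 to 1254 CPM in KO_drug, 1212 to 2684 CPM in KO and 494 to 675 CPM in Het. Against KO, KO_drug had 11 of the 16 called lower. Of 12 hepatocyte markers, 10 were called lower in KO against Het with a median log2 change of -0.92, and 4 were called higher in KO_drug against KO. Their sum was 72739.6 to 94577 CPM in KO_drug, 39685 to 71428 CPM in KO and 83536 to 141897 CPM in Het. No gene of either list was at 0 in all libraries. In KO_drug against Het, 2 macrophage markers were called higher and 2 hepatocyte markers lower. Called higher and lower in KO against Het were 3 and 1 of 8 cholangiocyte markers, 4 and 0 of 8 stellate cell and fibroblast markers, 3 and 0 of 7 sinusoidal endothelial markers, 5 and 0 of 5 tested T and NK cell markers, 5 and 0 of 5 tested neutrophil markers and 10 and 0 of 10 cell division genes. In the comparison of KO_drug with KO these lists, in the same order, had 1 and 2, 0 and 5, 0 and 2, 0 and 3, 0 and 2, and 0 and 1 calls, while 9 of the 10 cell division genes stayed higher in KO_drug against Het. The part of these cell types in the changes of Soat1, Npc2 and the enzymes was not tested.

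In KO_drug against KO, 7 of the 29 members rose, 1 fell and 21 were not called, while 8.80% of all genes were called higher and 11.0% lower. The groups did not overlap for 4 higher members (Pmvk, Tm7sf2, Insig1 and Soat2) and 2 lower ones (Soat1 and Lbr), where 11.4% and 12.5% of all genes did so. The rises were Pmvk, Tm7sf2 and Sc5d among the enzymes, Insig1, Insig2 and Scap among the sensors, and Soat2, and the fall was Soat1. The median log2 change was 0.47 over the members and -0.02 over all genes. Without KO_drug 2 the median over the members was 0.06, and 5 rises were called, while 938 of 13697 genes were called higher. Pmvk rose 3.11-fold (log2 1.63 ± 0.25 SE, edgeR adjusted p = 0.00165), Tm7sf2 2.15-fold (log2 1.1 ± 0.18 SE, edgeR adjusted p = 0.00203) and Insig1 2.26-fold (log2 1.17 ± 0.20 SE, edgeR adjusted p = 0.0025). Each of these 3 was higher in 4 of 4 agonist-fed libraries than in any KO library, and each was called whichever library was left out.

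Insig2 rose 2.12-fold in KO_drug against KO (log2 1.08 ± 0.27 SE, edgeR adjusted p = 0.0144). KO_drug 1, 3 and 4 lay above every other library, and KO_drug 2 lay below KO 4. Without KO 5 and KO 6 the edgeR adjusted p of Insig2 was 0.0743, and without any single library it stayed at or under 0.0481. Sc5d was not called without that pair either, at 0.14, and Ebp then was. Sc5d and Scap were called at log2 changes of 0.94 ± 0.31 and 0.51 ± 0.17 SE (edgeR adjusted p = 0.0456 for both). Each call was lost in 9 of the 12 fits that left out 1 library. Both were lost without Het 2, Het 3, Het 4, KO 2, KO 4, KO 5, KO_drug 2 or KO_drug 3. The Sc5d call was also lost without KO 6, and the Scap call without KO_drug 4. Without KO 2, KO 4 or KO_drug 3, the rises called in KO_drug against KO were Insig1, Insig2, Pmvk and Tm7sf2, and these 4 were also the rises called under total-count scaling. That scaling also called Lbr and Npc2 lower, at -0.72 and -0.56 on the log2 scale. Among all 13379 genes it called 354 higher and 3901 lower.

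No enzyme fell in KO_drug against KO in the edgeR fit, DESeq2 or limma voom, and 1, Lbr, had a negative change at an unadjusted p under 0.05. Hmgcs1, Idi1, Cyp51, Sqle and Msmo1, known targets of SREBP-2 picked here after their values were seen, were not called. Their log2 changes in KO_drug against KO were 0.36 ± 0.50 SE for Hmgcs1, 0.80 ± 0.53 for Idi1, 0.15 ± 0.47 for Cyp51, -0.10 ± 0.38 for Sqle and 0.32 ± 0.47 for Msmo1. Without KO_drug 2 these became -0.60 ± 0.32 SE for Hmgcs1, 0.06 ± 0.44 for Idi1, -0.58 ± 0.37 for Cyp51, -0.61 ± 0.31 for Sqle and -0.61 ± 0.27 for Msmo1, none called. The other enzymes went both ways in that fit. Sc5d, Fdps, Ebp, Acat2, Nsdhl, Ggps1, Lss and Fdft1 had positive log2 changes of 0.05 to 0.55, none called. Mvk, Mvd, Lbr, Dhcr7 and Hsd17b7 had negative ones of -0.72 to -0.12, none called. Pmvk and Tm7sf2 stayed called higher.

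In KO_drug against Het, 3 members fell, none rose and 26 were not called, while 8.45% of all genes were called lower and 13.0% higher. The groups did not overlap for 1 higher member, Npc2, and 2 lower, Sc5d and Tm7sf2, where 13.6% and 11.0% of all genes did so. The median log2 change was -0.33 over the members and -0.00 over all genes. DESeq2 and limma voom also called no rise, and 3 members, Pmvk, Npc2 and Soat2, had a positive change at an unadjusted p under 0.05. The falls were Mvk (log2 -1.13 ± 0.36 SE, edgeR adjusted p = 0.0379), Idi1 (-1.59 ± 0.53, edgeR adjusted p = 0.049) and Sc5d (-1.0 ± 0.31, edgeR adjusted p = 0.0332). Sc5d was 266 ± 141 CPM in KO_drug and 532 ± 72.3 CPM in Het (SD, n = 4 each), and KO_drug 2 reached to just below the lowest Het library.

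The count of falls in KO_drug against Het depended on KO_drug 2. Without it, 12 members were called lower: Hmgcs1, Mvk, Mvd, Idi1, Fdps, Fdft1, Sqle, Cyp51, Msmo1, Hsd17b7, Sc5d and Stard4. Among the 13697 genes tested in that fit, 1092 were called lower. The log2 change of Msmo1 was then -1.90 ± 0.28 SE (edgeR adjusted p = 0.000481), against -0.97 ± 0.47 with all libraries, and that of Stard4 -1.83 ± 0.24 SE (edgeR adjusted p = 0.000226), against -1.02 ± 0.42. None of the 3 falls was called without KO_drug 1, KO_drug 3, KO_drug 4 or Het 2. Sc5d was not called without Het 3 or Het 4 either, nor Mvk without Het 1, where Lbr was called in its place, and Idi1 kept its call in 1 of the 12 fits, that without KO_drug 2. The number called was 1 without Het 3, Het 4 or both KO 5 and KO 6. Without KO_drug 4, Pmvk was called higher (log2 0.78, edgeR adjusted p = 0.0241).

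**Figure D3:**
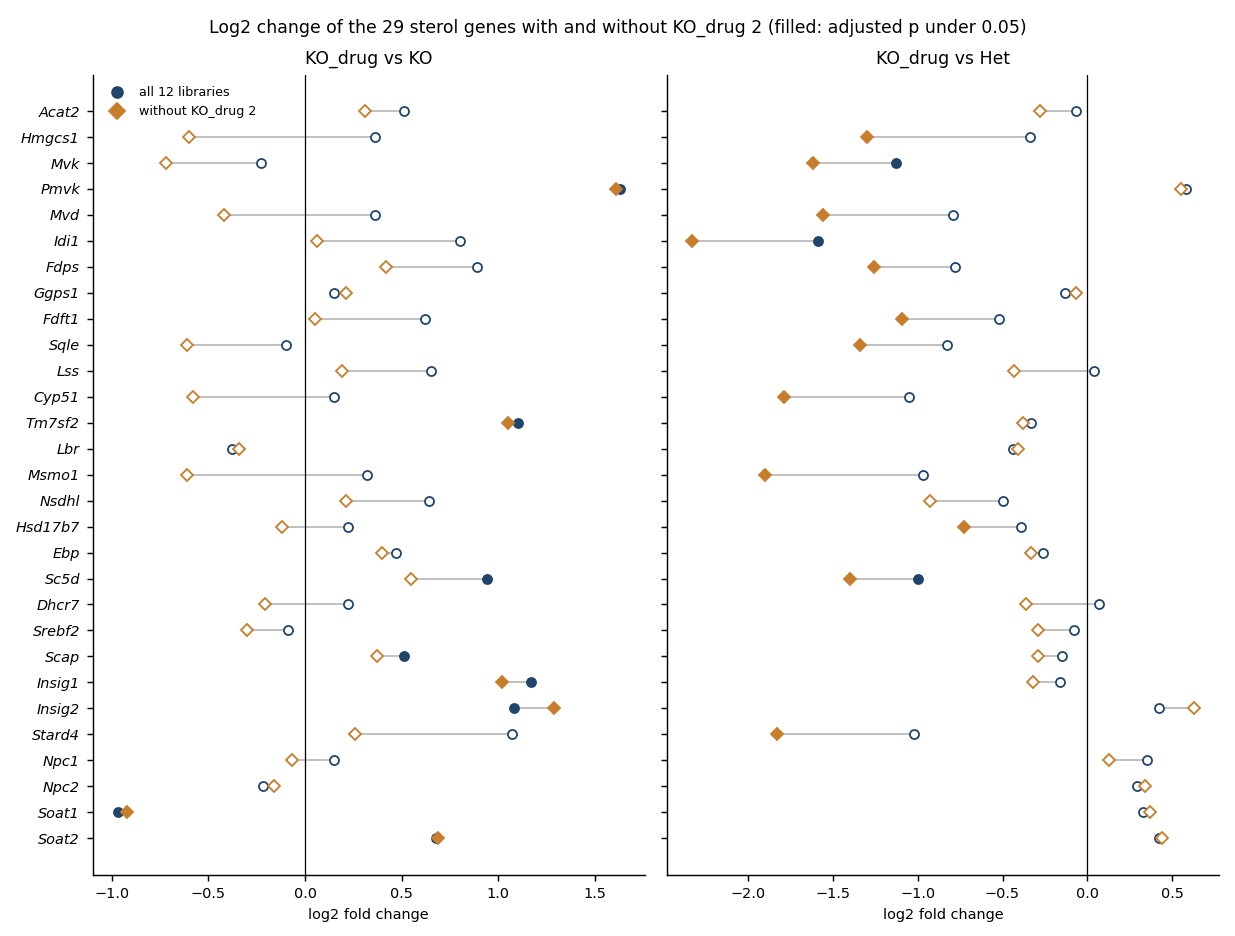
Log2 fold change (x axis) of the 29 sterol genes in KO_drug against KO (left) and KO_drug against Het (right), from all 12 libraries (circles) and without KO_drug 2 (diamonds); filled symbols had an edgeR adjusted p under 0.05. Without KO_drug 2 the filled falls against Het number 12, with all libraries 3, while Pmvk, Tm7sf2, Soat1 and Soat2 hardly moved.

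The agonist-fed libraries differed from each other in the sterol enzymes more than the libraries of the other groups did. The summed level of the 20 enzymes was 1899, 4280.3, 2209 and 1159 CPM in KO_drug 1 to 4, 1962, 1312, 1329.6 and 1838 CPM in KO 2, 4, 5 and 6, and 3956, 4370.5, 2964 and 3134 CPM in Het 1 to 4. KO_drug 2 was thus at the Het level and KO_drug 4 below every other library. KO_drug 2 was the highest of the 4 in 16 of the 20 enzymes (80.0%), against 26.5% of all genes tested, the exceptions being Pmvk, Ggps1, Tm7sf2 and Lbr. KO_drug 4 was the lowest in 17 of the 20 (85%), against 21.4% of all genes. The median coefficient of variation of the enzymes was 58.2% in KO_drug, 26.4% in KO and 23% in Het, while that of all genes was 17.3%, 17.4% and 18.8% in the same order of groups. Genes are not independent of each other, so these shares describe the 4 libraries of a group and carry no test.

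The spread was uneven along the pathway. Within KO_drug the highest library exceeded the lowest 12.1-fold for Idi1, 9.14-fold for Cyp51, 8.49-fold for Hmgcs1 and 6.55-fold for Msmo1. The same ratio was 1.15 for Lbr, 1.27 for Ggps1, 1.4 for Tm7sf2 and 1.55 for Ebp. KO_drug 2 exceeded the mean of KO_drug 1, 3 and 4 by 4.83-fold for Hmgcs1, 4.63-fold for Msmo1 and 4-fold for Stard4, and by a median of 2.46-fold over the 20 enzymes, where the median over all genes was 0.987. Among all genes, 1.55% had a ratio as high as the enzymes' median. Insig2 ran the other way, with a ratio of 0.473.

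In contrast to the enzymes, most of the LXR response genes checked were lowest of the group in KO_drug 2, by unlike margins. Of 12 genes listed to check the agonist, 8 were called higher in KO_drug against KO and 9 in KO_drug against Het, led in both by the lipogenic genes Fasn (log2 2.85 ± 0.26 and 2.4 ± 0.25 SE) and Scd1 (4.49 ± 0.46 and 3.81 ± 0.44 SE). For all genes, the shares called higher in these comparisons were 8.80% and 13.0%. KO_drug 2 was the lowest of the 4 agonist-fed libraries in 8 of the 12, against 26.3% of all genes tested, and the highest in 2. Those 2 were Pltp, at 57.1 CPM against 39.5 to 44.7 CPM in KO_drug 1, 3 and 4, and Nr1h3, at 119.6 against 102 to 109 CPM. The level of Srebf1, which encodes SREBP-1, was 84.8 CPM in KO_drug 2, against 354 to 566 CPM in KO_drug 1, 3 and 4, 34.8 to 67.5 CPM in KO and 59.9 to 108 CPM in Het. The sterol exporter Abcg5 stood at 79.1 CPM in KO_drug 2 and 357 to 411 CPM in the other 3, and Abca1 at 315 and 603 to 793 CPM. Fasn and Lpcat3 were lowest in KO_drug 2 by less, at 923 CPM against 1012 to 1313 CPM and 105 CPM against 129.9 to 148 CPM. Both lay above every KO library, at 134 to 207 CPM for Fasn and 45.8 to 65.4 CPM for Lpcat3. Scd1 was not low in KO_drug 2, at 56835 CPM against 48104 to 76609 CPM in the other 3. The labels place KO_drug 2 in the agonist-fed group, and dose and time of feeding of single animals are not given. Abcg5, Abca1, Lpcat3 and Nr1h3 were named here after their values were seen.

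**Figure D4:**
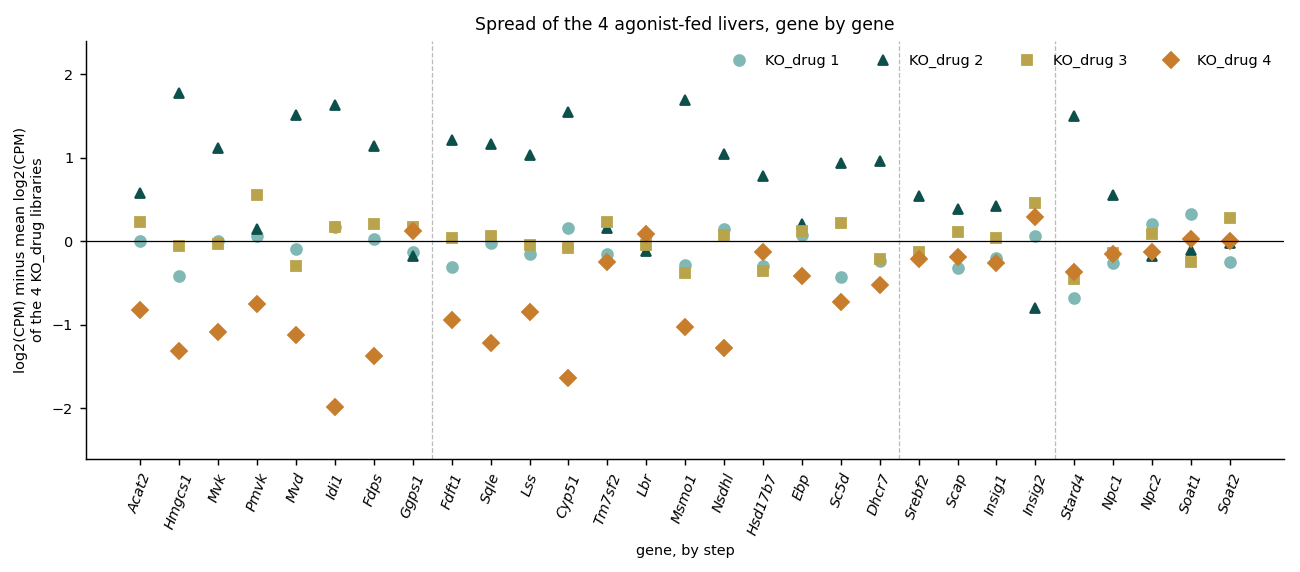
For each of the 29 sterol genes (x axis, by step of the pathway), the log2 CPM of KO_drug 1 to 4 minus the mean log2 CPM of these 4 libraries (y axis). KO_drug 2 (triangles) lies highest for 21 of the 29 genes and lowest for Insig2, Ggps1, Lbr and Npc2, and KO_drug 4 (diamonds) lies lowest for 17 of the 20 enzymes.

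Other genes of the pathway were listed apart from the members. The calls in these lists are read beside the shares over all genes tested. Called higher and lower were 23.0% and 17.7% in KO against Het, 8.80% and 11.0% in KO_drug against KO. In KO_drug against Het they were 13.0% and 8.45%. Of 8 other sterol synthesis genes, 2 were called lower and none higher in KO against Het, among them Cyb5a, an electron donor (log2 -0.87 ± 0.17 SE, edgeR adjusted p = 0.0017). In KO_drug against KO 3 of the 8 rose, led by Cyb5a (log2 0.79 ± 0.17 SE) and Cyb5r3, its reductase (log2 0.82 ± 0.18 SE). In KO_drug against Het 2 rose, among them Por, the electron donor of microsomal oxidases (log2 1.99 ± 0.38 SE), and 1 fell.

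Of 12 genes of SREBP processing and linked protein turnover, 6 fell and none rose in KO against Het, among them Syvn1, a ubiquitin ligase of the endoplasmic reticulum (log2 -1.35 ± 0.29 SE). In KO_drug against KO 4 rose, led by Srebf1 (log2 2.79 ± 0.45 SE) and Rnf145, a ubiquitin ligase induced by LXR (log2 1.31 ± 0.29 SE). In KO_drug against Het 2 rose and 2 fell, led by Syvn1 (log2 -1.78 ± 0.29 SE) and Rnf145 (log2 1.63 ± 0.30 SE). The 10 genes of the isoprenoid branch held 2 calls in KO against Het: 1 rose, Pdss1, which makes the side chain of ubiquinone (log2 0.87 ± 0.27 SE), and 1 fell, Rce1, a protease of prenylated proteins (log2 -0.52 ± 0.14 SE). Under total-count scaling, where the median of all genes was 0.54, all 10 values were positive in KO against Het, Rce1 included. A positive sign alone is therefore no rise relative to all genes. None of the 10 was called in KO_drug against KO by edgeR, DESeq2 or limma voom, with 1, Pdss2, at an unadjusted p under 0.05. In KO_drug against Het, Pdss1 rose by 1.14 ± 0.27 SE and Rce1 had a log2 change of -0.63 ± 0.14 SE, both called.

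Of 15 genes of sterol uptake and transport, 4 rose and 1 fell in KO against Het, where 23.0% and 17.7% of all genes did so. Npc1l1, a sterol uptake transporter, had 95, 46, 74 and 101 counts in KO 2, 4, 5 and 6 and 0 counts in each Het library (edgeR adjusted p = 0.000642). It had 11, 5, 0 and 0 counts in KO_drug 1 to 4, which was called lower than KO (edgeR adjusted p = 0.0112). Stard5, a sterol carrier, was called lower in KO against Het (log2 -0.45 ± 0.12 SE) and higher in KO_drug against KO (log2 0.55 ± 0.12 SE). Its fall is smaller in size than the all-gene median of 0.54 under total-count scaling. Gramd1b, which moves sterol from the plasma membrane to the endoplasmic reticulum, stood at 19.4, 3.65, 25.9 and 24.7 CPM in KO_drug 1 to 4, at 4.05, 5.13, 5.02 and 3.8 CPM in KO 2, 4, 5 and 6, and at 1.6, 1.56, 0.952 and 1.17 CPM in Het 1 to 4. It rose in KO_drug against KO (log2 2.03 ± 0.43 SE, edgeR adjusted p = 0.00664) and in KO_drug against Het (log2 3.79 ± 0.48 SE, edgeR adjusted p = 0.000106), and KO_drug 2 lay at the KO level. The relative Gramd1c rose in KO_drug against Het by 0.61 ± 0.15 SE on the log2 scale. In KO_drug against KO 3 of the 15 rose and 1 fell, and in KO_drug against Het 2 rose and 1 fell.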

How the data were processed

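RNA of flash-frozen whole liver was sequenced as stranded total RNA, per the labels' protocols. The authors deposited raw whole-number counts for 24532 genes in 12 libraries, in columns so named per the file headers. They also deposited FPKM for these genes. Where every library had at least 200 counts (6404 genes), 99% of FPKM values were proportional to the counts within 5%, given 1 factor for the gene and 1 for the library. FastQC 0.11.7, StringTie 2.1.3b and build mm10 are named per the submitters' processing notes; of the aligner, annotation release and use of strand nothing is said in these sources. Not used were 3 unnamed columns, which hold values for 4 genes.

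The filterByExpr rule of edgeR, at a count of 10 and a total of 15, left 13379 genes and set aside 11153. The quasi-likelihood test of edgeR 4.0.16 (in R 4.3.3) was fitted to the 12 libraries with 3 group means after TMM scaling, and was tested on simulated data first. Two-sided p-values were adjusted by the Benjamini-Hochberg method across the 13379 genes; the SE is the log2 change over the square root of F. Library totals of 16.5 to 28.3 (1e6 counts) set the counting precision. Alternatives used DESeq2 1.42.0, limma 3.58.1 (voom, or trend on log2(FPKM + 0.1) and log2(FPKM + 1)), other scalings, no filter, 2 groups alone, a block by number, and libraries left out. Members and lists were chosen with earlier results of these data known. Named genes are all members, Atp7b, Xist, Ddx3y and, from each other list, the 2 called genes with the smallest adjusted p in each comparison. Cell type lists are given by counts instead, with sums and 2 named markers where they bear on a member. Genes named outside this rule are marked as chosen after their values were seen, apart from neighbours that overlap a member. Positions and promoter windows are RefSeq's (GRCm38.p6, the same build as mm10), matched by gene number or symbol. Some genes of the other lists are not reported here by name.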

Additional observations from a re-analysis of the deposited data

Results flagged for a closer look

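In 7 of 90 sets of 4 values (29 members and the sum of the enzymes, in 3 groups), 1 library lay far from the other 3, with a gap to the nearest value that was over Dixon's critical share of the whole range; chance flags about 1 in 20 such sets. KO_drug 2 was the library in 6 of the 7, always as the highest: Msmo1 at 388 CPM (the others 59.3 to 99), Hsd17b7 at 137 CPM (61.9 to 72.6), Dhcr7 at 124 CPM (44.5 to 55.3), Srebf2 at 33.7 CPM (20.1 to 21.2), Stard4 at 102 CPM (22.4 to 27.8) and Npc1 at 262 CPM (149 to 162). The seventh was Npc1 in KO 4 at 136 CPM, below the other KO libraries at 171 to 177 CPM. The cause was not tested.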

How the results depend on the processing

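Under total-count scaling, 4 members were called higher and 6 lower in KO against Het (median log2 change -0.19), 4 higher and 3 lower in KO_drug against KO, and 2 higher and 0 lower in KO_drug against Het. Among all 13379 genes, that scaling called 6909 higher and 460 lower in KO against Het. In KO_drug against KO it called 354 higher and 3901 lower, and in KO_drug against Het 2433 higher and 499 lower. Measured from the median of all genes, the members stood at -0.73 in KO against Het under that scaling and at -0.74 under TMM. With log2(FPKM + 0.1), 5 were called higher and 6 lower in KO against Het (median -0.19), 4 higher and 3 lower in KO_drug against KO (median 0.00), and 2 higher and 3 lower in KO_drug against Het; with log2(FPKM + 1) the numbers were 5 and 6 (median -0.18), 3 and 3, and 1 and 3. The 3 falls in KO_drug against Het were Idi1, Mvk and Sc5d under both, as in the edgeR fit. Among all genes, log2(FPKM + 0.1) called 7148 higher and 453 lower in KO against Het, and 371 and 4410 in KO_drug against KO. With log2(FPKM + 1) these numbers were 7123 and 457, and 375 and 4548. In KO_drug against Het they were 2315 and 518, and 2058 and 470, in the same order of settings. Lbr, at -0.07 on the log2 scale in KO against Het under TMM, was at 0.47, 0.48 and 0.39 under these 3 settings. With the 2 compared groups alone, 21 members were called lower in KO against Het and 1 in KO_drug against Het. Among all genes, 2542 of 13343 and 1032 of 12551 were called lower in these fits. By limma voom, 8 were called lower in KO_drug against Het, and without KO 5 and KO 6 1 was. Among all genes, 1513 of 13379 and 1160 of 13789 were called lower in these fits. Leaving out 1 library, the number called in KO against Het was 9 to 18 lower and 2 higher, in KO_drug against KO 4 to 9 higher and 1 lower, and in KO_drug against Het 0 to 12 lower and 0 to 1 higher.

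The same-numbered libraries of different groups correlated at -0.07 to 0.17 in their deviations from the group means, with 4 of 8 over 0.1. Among the Het libraries, 3 KO_drug libraries correlated best with the one of their own number. Differently numbered libraries reached 0.256, in KO 6 and KO_drug 3. These values do not settle whether the numbers mark pairs. The labels name no pairs, and the main fit took the libraries as unpaired. The numbers 5 and 6 occur in KO alone, so a block by number leaves the comparisons with KO to KO 2 and KO 4. With the number as a replicate block, 12 members were called lower and 2 higher in KO against Het, 5 higher and 1 lower in KO_drug against KO, and 5 lower and 1 higher in KO_drug against Het. Of the 12 falls in KO against Het 10 were shared with the fit without the block: Pmvk and Nsdhl were not called with it, and Mvk and Mvd were. In KO_drug against KO, Insig2 and Sc5d were not called with the block. In KO_drug against Het, Cyp51 and Msmo1 were also called lower and Soat2 higher. Among all genes, the block fit called 2327 higher and 1366 lower in KO against Het. In KO_drug against KO it called 633 higher and 1108 lower, and in KO_drug against Het 1568 higher and 948 lower. Over the members, Atp7b, the promoter window shares and alternatives other than leaving out 1 library, 826 of 993 values were kept. For a gene, kept means the same direction and side of the threshold. For a window share, the share in the 100 bases nearest the start had to lie within the 95% interval of the whole-window share. Changes of sign in values that were never called count as moved. Counting precision is lowest for the members with the fewest counts. Their lowest library counts were 91 for Mvd, 129 for Mvk, 143 for Soat1, 215 for Ggps1 and 238 for Lbr. With 4 libraries a group, an exact permutation p cannot be under 0.0286.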
